A study of Homo sapiens with 16 samples.

Results

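The effect of adding the ATR inhibitor VE-822 to hydroxyurea (HU) was measured in U2OS cells, a human osteosarcoma line, by RNA sequencing. The comparison set the 4 libraries of cells given HU and VE-822 together against the 4 libraries of cells given HU alone, 8 of the 16 libraries of the series. All libraries came from cells transfected with siRNA, either a non-targeting control (siNT) or an siRNA against the histone methyltransferase SETD2 (siSETD2), and the drugs were given for 4 h at 2 mM HU and 2 µM VE-822. The design text of the series places this at 48 h after transfection, without saying whether that is its start or its end. The 4 groups compared were thus siNT and siSETD2 cells, each in HU or in HU plus VE-822, with 2 libraries a group (R1 and R2). Each library in HU with VE-822 was paired with the HU library of the same siRNA and replicate number, which gave 4 pairs. Of 58735 genes listed, the 13088 with a mean of at least 1 FPKM (fragments per kilobase of exon and per sequencing depth, a level scaled to gene length and library size) over the 16 libraries were tested. At that threshold NMNAT2 (1.00001 FPKM) was just inside and GFI1 (0.99974 FPKM) just outside. Whether R1 and R2 came from separate cultures is not stated in the labels. The model also held the 4 untreated libraries (2 per siRNA, no drug) to estimate the spread, and 4 libraries given VE-822 alone (2 per siRNA) served for values side by side. The p-values therefore reflect the variation left among the 12 libraries after each combination of siRNA and replicate number was given its own level. That variation may be technical.

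HU blocks ribonucleotide reductase, which starves replication forks of deoxynucleotides. Stalled forks activate the kinase ATR, which acts through CHK1 and WEE1 to hold down cyclin-dependent kinase activity, to limit new origin firing and to delay entry into mitosis. Genes of the G2 and M phases are transcribed by complexes of MYBL2 and FOXM1 with MuvB, which depend on cyclin-dependent kinase activity and bind promoters that often carry a cell cycle homology region (CHR) and CCAAT boxes.

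The 8 libraries held 22310806 to 27862552 fragments and 26548 to 28941 genes with at least 1 fragment. The mesenchymal markers VIM, SPARC, CDH2, COL1A1, THY1 and ENG were expressed, with SPARC at means of 185 FPKM in HU and 149 FPKM in HU with VE-822. The other mesenchymal and bone markers of the same list were low or absent. RUNX2 stood at 1.45 and 1.28 FPKM, CDH11 at 0.30 and 0.31 FPKM and BGLAP at 0.28 and 0.43 FPKM. ALPL stood at 0.136 and 0.162 FPKM and COL1A2 at 0.006 and 0.0086 FPKM, and TWIST1 and SP7 were listed at 0 in all 4 libraries with VE-822. Of 9 epithelial markers 4 were tested, led by KRT18 at 70.2 and 68.3 FPKM, and the summed level of 12 blood and endothelial markers was 3.52 to 4.76 FPKM in the 8 libraries, with ITGAM (2.21 and 1.72 FPKM) and CD3D (1.38 and 1.41 FPKM) above 1 FPKM. SETD2 itself, the siRNA target, stood at 7.34 to 8.12 FPKM in the 4 siNT libraries and 2.22 to 4.13 FPKM in the 4 siSETD2 libraries of this comparison. Its level did not differ with VE-822 beyond the spread (log2 fold change -0.05, SE 0.0779, limma adjusted p = 0.754).

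Averaged over both siRNAs, 95 genes rose (0.726% of those tested) and 82 fell (0.627%) when VE-822 was added to HU, and 2492 genes had an unadjusted p under 0.05. Calls were made with limma at a Benjamini-Hochberg adjusted p under 0.05 over all 13088 genes. Fold changes are differences of log2(FPKM + 1), so they understate changes of genes near 1 FPKM. They were modest: the median size was 0.49 among risen and 0.45 among fallen genes, against 0.11 over all genes tested. All 177 called genes moved the same way in 4 of 4 pairs, whereas 17.7% of all genes were higher and 16.5% lower in 4 of 4 pairs. In 57 of the 95 risen genes the lowest library with VE-822 lay above the highest without it, and in 46 of the 82 fallen genes the reverse held, where 3.84% and 2.87% of all genes did so. The calls were made from these same libraries, so such counts among called genes follow in part from the choice and are no separate evidence. The median over all genes was 0.01.

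The calls rested on the pairing and on single libraries. In limma without the replicate block the count was 0, and 814 genes had an unadjusted p below 0.05. Leaving out 1 of the 12 libraries of the model at a time gave from 4 genes (without siSETD2 R1 in HU) to 868 genes (without untreated siSETD2 R1), and leaving out 1 pair gave 0 to 11. With only the 8 libraries compared in the model 222 genes rose and 224 fell. Every one of the 177 genes kept its direction under each of these settings. Of the 40 called genes named by rule, CENPA, CD274 and the long noncoding RNA AC124276.2 were called in all 12 fits that left out 1 library, and the other 37 lost their call without siSETD2 R1 in HU. In the 4 fits that left out a pair, CD274 was called in 3, and CENPA and AC124276.2 in 2 each. In the 12 fits that left out 1 library the fold change of CENPA lay between 0.997 and 1.14 and that of CD274 between -1.44 and -1.26.

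**Figure D1:**
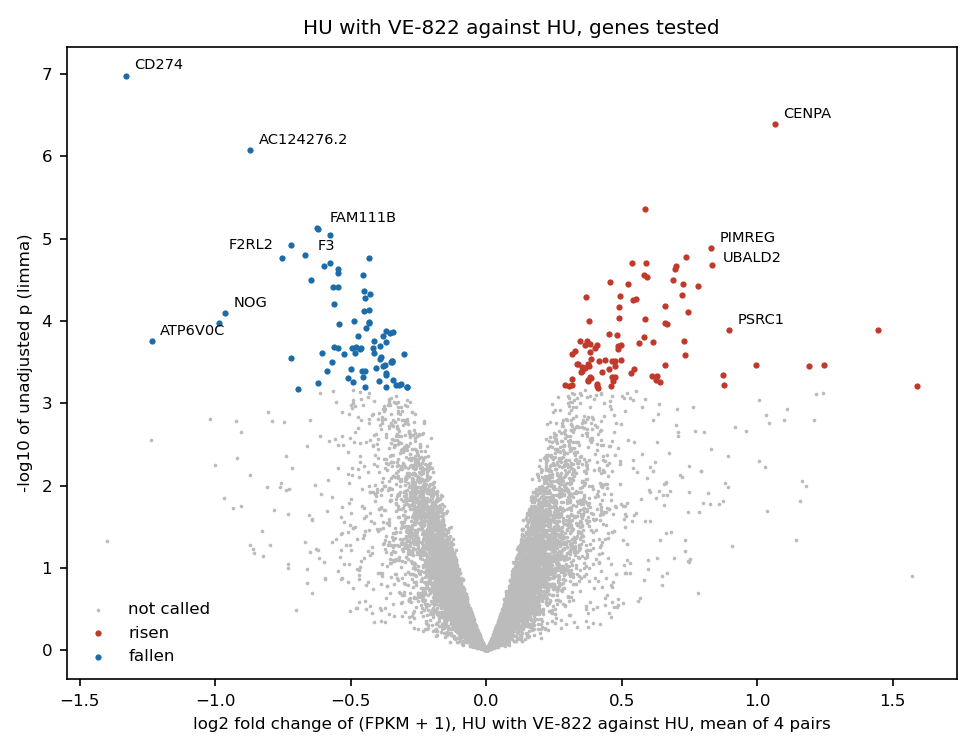
Each point is 1 of 13088 genes, with the log2 fold change of (FPKM + 1) for HU with VE-822 against HU on the x axis, averaged over 4 pairs, and minus log10 of the unadjusted limma p on the y axis. Risen (95) and fallen (82) genes at an adjusted p under 0.05 are coloured, and CD274 and CENPA stand highest on their sides.

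Genes of the G2 and M phases were higher when VE-822 was added. Of 64 tested members of a list of FOXM1 and G2/M genes, 15 rose and 0 fell (23.4% called, against 1.35% of all genes in either direction), and 63 were higher on average. ANLN, an actin-binding protein of cytokinesis, was the exception at -0.09. The median of the list was 0.35, against 0.01 over all genes, and by pair it was 0.43 in siNT R1, 0.16 in siNT R2, 0.56 in siSETD2 R1 and 0.32 in siSETD2 R2. Members higher in 4 of 4 pairs numbered 46, where 17.7% of all genes were. In 37 members the libraries with VE-822 were higher without overlap, where 3.84% of all genes were. The median stayed between 0.27 and 0.45 under every setting tried, but the number of risen members ran from 0 to 28: it was 0 without the replicate block and 1 without any 1 of siNT R2 in HU, either siSETD2 library in HU or either siSETD2 library in HU with VE-822. In bulk RNA a larger share of cells in G2 and more transcript per cell cannot be told apart.

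The promoters of CENPA, PSRC1 and PLK1, risen G2/M genes, are shown because they carry both elements named above and were picked for them. Each is the stretch of 250 bases before RefSeq's transcription start, 5′ to 3′ along the gene's strand (GRCh38.p14), with CCAAT boxes (CCAAT, either strand) and the CHR (TTTGAA or TTCGAA, either strand) in capitals. CENPA lies at chr2:26785806-26786055 (plus strand), PSRC1 at chr1:109283146-109283395 (minus strand) and PLK1 at chr16:23678639-23678888 (plus strand).
CENPA: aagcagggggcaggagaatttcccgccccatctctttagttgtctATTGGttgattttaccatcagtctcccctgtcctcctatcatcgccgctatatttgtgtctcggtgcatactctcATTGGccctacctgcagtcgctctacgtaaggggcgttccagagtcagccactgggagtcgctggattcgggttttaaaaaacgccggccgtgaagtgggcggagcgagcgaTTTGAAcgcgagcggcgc
PSRC1: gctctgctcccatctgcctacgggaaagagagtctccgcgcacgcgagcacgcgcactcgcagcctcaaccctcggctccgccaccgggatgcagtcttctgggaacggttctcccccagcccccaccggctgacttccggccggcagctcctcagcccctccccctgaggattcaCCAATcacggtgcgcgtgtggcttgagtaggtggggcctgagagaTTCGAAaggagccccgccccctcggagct
PLK1: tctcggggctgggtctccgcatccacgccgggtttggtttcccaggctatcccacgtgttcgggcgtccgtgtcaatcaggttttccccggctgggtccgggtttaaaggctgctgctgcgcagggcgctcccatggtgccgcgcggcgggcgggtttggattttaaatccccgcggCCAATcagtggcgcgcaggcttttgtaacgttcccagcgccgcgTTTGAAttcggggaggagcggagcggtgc
Counted back from the start, the CHR lay at -18 to -13 in CENPA and at -29 to -24 in PSRC1 and PLK1. CCAAT boxes lay at -205 to -201 and -130 to -126 in CENPA, at -74 to -70 in PSRC1 and at -73 to -69 in PLK1. Both elements occurred in the promoters of 27 of 53 list members found in the promoter table (50.9%), in 6 of the 11 risen members found there (54.5%) and in 21 of 42 members that were not called. Among all 9144 tested genes found in the table the share was 5.15%, and over all 35116 windows of the table it was 5.05%. These are matches of letters only.

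CENPA, the histone H3 variant that marks centromeres (chr2:26764289-26801067 in GENCODE 29), had the lowest p among risen genes. The span of CENPA overlaps that of SLC35F6, an expressed gene on the same strand. In the order siNT R1, siNT R2, siSETD2 R1, siSETD2 R2, which is used throughout, its level was 6.12, 6.43, 7.26 and 6.49 FPKM in HU and 14.6, 12.9, 17.9 and 14.3 FPKM in HU with VE-822. The 4 libraries with VE-822 all lay above the 4 without, and siSETD2 R1 was the highest of each treatment. The mean went from 6.58 ± 0.481 to 14.9 ± 2.12 FPKM (SD, n = 4), a log2 fold change of 1.07 (SE 0.0894, limma adjusted p = 0.00266). Untreated cells held 12.7 ± 1.17 FPKM, and the HU libraries enter both comparisons: HU against untreated was -0.85 and HU with VE-822 against untreated 0.21.

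PSRC1, a microtubule-associated protein of the spindle (chr1:109279556-109283186), stood at 5.77, 6.81, 6.20 and 7.69 FPKM in HU and at 12.3, 13.0, 14.4 and 12.8 FPKM in HU with VE-822. No library of one treatment overlapped the other, and the 4 libraries with VE-822 lay close together. It rose by 0.90 (SE 0.147, limma adjusted p = 0.0278). Its untreated level was 13.9 and 16.5 FPKM in R1 and 27.1 and 26.4 FPKM in R2. The values with VE-822 thus stood near untreated R1 and below untreated R2, and averaged -0.59 against untreated on the log2 scale. PIMREG, a mitotic regulator also known as FAM64A, was not in the list and was among the 12 largest rises, from 5.08, 5.02, 3.59 and 4.66 FPKM to 7.61, 10.2, 8.05 and 9.83 FPKM (0.83, SE 0.103, limma adjusted p = 0.0145). Its 2 sets of libraries did not overlap, and R2 was higher than R1 in both siRNAs with VE-822.

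Some cyclins and mitotic kinases of the list also rose. Cyclin B1 (CCNB1), the partner of CDK1 at mitotic entry, stood at 73.4, 87.7, 81.1 and 80.7 FPKM in HU and at 101, 114, 138 and 123 FPKM with VE-822 added (0.55, SE 0.0811, limma adjusted p = 0.0176). Polo-like kinase 1 (PLK1) went from 12.9, 16.2, 11.9 and 14.6 FPKM to 20.9, 20.5, 22.5 and 19.8 FPKM (0.56, SE 0.0969, limma adjusted p = 0.0312). In both genes every library with VE-822 exceeded every library without it, and the pair siSETD2 R1 differed most. Cyclin B2 (CCNB2) rose by 0.52, the mitotic kinase AURKA by 0.58, and cyclin A2 (CCNA2), which acts in S phase and G2, by 0.50 (limma adjusted p = 0.0154, 0.0248 and 0.0312). CDK1 itself, at 0.21 (adjusted p = 0.24), the kinases AURKB, at 0.34 (adjusted p = 0.084), and NEK2, at 0.48 (adjusted p = 0.069), and FOXM1, at 0.31 (adjusted p = 0.13), did not pass.

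Regulators of chromosome segregation and mitotic exit were among the other risen members. UBE2C, the ubiquitin-conjugating enzyme of the anaphase-promoting complex, stood at 30.7, 33.6, 35.5 and 33.4 FPKM in HU and at 55.2, 43.7, 69.4 and 51.6 FPKM in HU with VE-822 (0.69, SE 0.0948, limma adjusted p = 0.0154). BIRC5 (survivin), a subunit of the chromosomal passenger complex, went from 20.1, 21.5, 15.9 and 21.6 FPKM to 26.9, 33.2, 29.99 and 37.0 FPKM (0.66, SE 0.105, limma adjusted p = 0.0248). Neither gene overlapped between treatments. CDCA8, another passenger subunit, rose by 0.59, CDCA3 by 0.63, RACGAP1 of the central spindle by 0.47, ARHGAP11A by 0.46, CDC20, an activator of the anaphase-promoting complex, by 0.45, and securin (PTTG1) by 0.41. The treatments overlapped in CDC20 alone among the 15 risen members. PIF1, a helicase with a G2-phase peak of transcription, stood at 9.34, 12.4, 12.4 and 13.7 FPKM in HU and 27.4, 19.0, 29.5 and 19.2 FPKM with VE-822, did not overlap, and missed the threshold at 0.92 (SE 0.219, limma adjusted p = 0.0721).

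**Figure D2:**
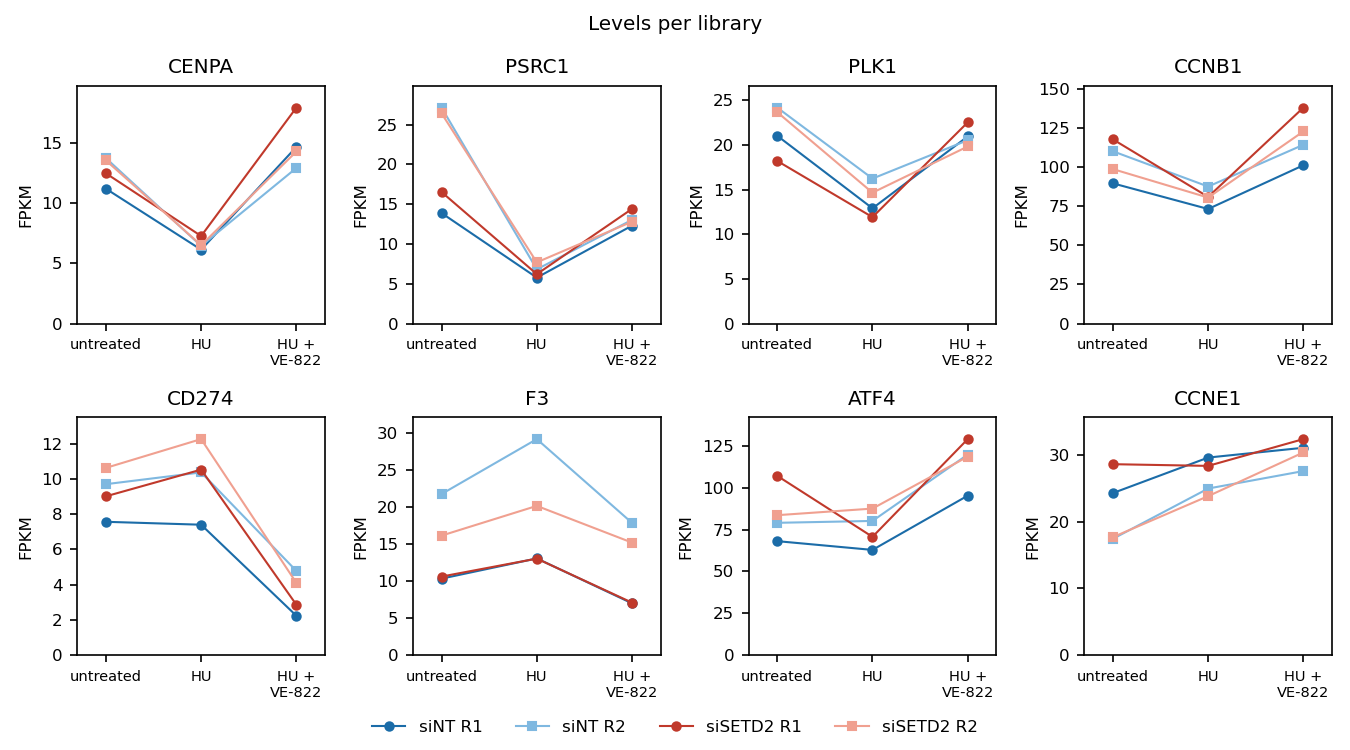
FPKM per library for 8 genes in untreated cells and after HU without or with VE-822, with lines joining libraries of 1 siRNA and replicate number. CENPA, PSRC1, PLK1, CCNB1 and ATF4 were higher with VE-822 in each of the 4 lines and CD274 and F3 lower, while CCNE1 moved by less than the test could call.

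The largest fall among called genes was that of CD274, which encodes the immune checkpoint ligand PD-L1 (chr9:5450503-5470566). Its level was 7.40, 10.4, 10.5 and 12.3 FPKM in HU and 2.23, 4.77, 2.85 and 4.09 FPKM in HU with VE-822. Every library with VE-822 lay below every library without it, and untreated libraries, at 7.56 to 10.6 FPKM, lay in the range of HU or near it. The mean fell from 10.1 ± 2.02 to 3.49 ± 1.16 FPKM (SD, n = 4), a log2 fold change of -1.33 (SE 0.0964, limma adjusted p = 0.00138), the lowest adjusted p of all genes. By siRNA it was -1.18 in siNT and -1.48 in siSETD2. The value for VE-822 alone against untreated was -1.66.

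Other genes among the 12 largest falls were F3, F2RL2, PLAU and NOG. F3, tissue factor, the cell-surface initiator of coagulation, stood at 13.1, 29.2, 13.0 and 20.2 FPKM in HU and at 6.99, 17.9, 7.08 and 15.2 FPKM with VE-822 (-0.67, SE 0.0848, limma adjusted p = 0.0145). Its R2 libraries were higher than its R1 libraries in both treatments, so the 2 treatments overlapped although each pair fell. F2RL2, the thrombin-binding receptor PAR3, went from 19.3, 24.2, 22.5 and 21.9 FPKM to 10.5, 14.2, 12.6 and 14.6 FPKM (-0.72, SE 0.0886, limma adjusted p = 0.0145), with no overlap. PLAU, the urokinase plasminogen activator, stood at 92.8, 78.7, 105 and 100.05 FPKM in HU and 45.1, 57.6, 56.8 and 74.0 FPKM with VE-822 (-0.69, SE 0.141, limma adjusted p = 0.0494), also with no overlap and close to the threshold.

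Noggin (NOG), a secreted antagonist of bone morphogenetic proteins, stood at 44.8, 68.9, 47.7 and 86.6 FPKM in HU and at 18.1, 38.7, 24.3 and 48.1 FPKM with VE-822 (-0.96, SE 0.149, limma adjusted p = 0.0219). R2 lay above R1 in each group, and siSETD2 R2 with VE-822 exceeded the R1 libraries in HU. ARVCF, a catenin of cell junctions, fell by 0.65 and the tight-junction protein CLDN4 by 0.55 on the log2 scale (limma adjusted p = 0.0154 and 0.0312). DUSP8, a phosphatase of mitogen-activated protein kinases, changed by -0.55 (limma adjusted p = 0.0145). DUSP8 was the 1 member called of a list written for ERK feedback, with 14 tested genes (7.14%, against 1.35% of all genes). Of the 14, 6 were higher and 8 lower, with a median of -0.07. Without strand information the fragments of genes that overlap on opposite strands cannot be told apart. This bears on several genes named here, with ARVCF, PIMREG, CCNA2 and RPS29 among them.

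The promoters of the fallen genes CD274 and F3 are shown for elements they carry and were picked for them. CD274 carries the core of an interferon response element, searched as GAAA, any 2 bases and GAAA again, and F3 carries TGANTCA, the AP-1 element (either strand, matches in capitals). CD274 is at chr9:5450292-5450541 (plus strand) and F3 at chr1:94541760-94542009 (minus strand), again 250 bases before RefSeq's start.
CD274: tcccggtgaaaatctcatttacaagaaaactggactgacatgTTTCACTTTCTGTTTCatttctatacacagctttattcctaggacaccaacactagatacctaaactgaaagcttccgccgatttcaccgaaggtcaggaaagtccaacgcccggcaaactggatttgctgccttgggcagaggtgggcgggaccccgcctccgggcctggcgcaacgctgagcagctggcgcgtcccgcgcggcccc
F3: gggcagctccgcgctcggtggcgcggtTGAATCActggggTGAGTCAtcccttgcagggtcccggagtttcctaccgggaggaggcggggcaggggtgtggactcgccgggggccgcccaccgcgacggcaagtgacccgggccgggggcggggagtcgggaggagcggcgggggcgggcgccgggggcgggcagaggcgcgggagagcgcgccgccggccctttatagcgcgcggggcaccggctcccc
The 2 interferon-element matches of CD274 overlap each other, at -208 to -199 and -202 to -193, and the AP-1 matches of F3 lie at -223 to -217 and -210 to -204. The interferon element occurred in 4 of 56 fallen genes found in the promoter table (7.14%), against 3.16% of all tested genes found there, 3.02% of all windows and 53.6% of the interferon-stimulated list. AP-1 elements occurred in 7 of the 56 fallen genes (12.5%), against 6.11% of tested genes and 6.57% of all windows.

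FAM111B, a serine protease expressed in S phase, stood at 13.8, 22.2, 12.1 and 23.6 FPKM in HU and at 7.17, 15.1, 7.70 and 16.1 FPKM with VE-822 (-0.62, SE 0.0725, limma adjusted p = 0.0145). The treatments overlapped because R2 was higher throughout, and each pair fell. ATP6V0C, the proteolipid of the vacuolar proton pump, went from 19.1, 16.1, 19.3 and 23.4 FPKM to 15.5, 4.46, 7.29 and 6.43 FPKM (-1.23, SE 0.211, limma adjusted p = 0.0311). In siNT R1 the difference was much smaller than in the other pairs, and a transcript on the same strand, AC093525.8, overlaps the gene. Of the 82 fallen genes 13 were noncoding, so 84.1% coded for protein, against 81.5% of all genes tested. AC124276.2, a long intergenic RNA (chr11:12086891-12089441), went from 5.31, 4.44, 5.78 and 4.98 FPKM to 2.29, 2.38, 2.51 and 2.20 FPKM without overlap (-0.87, SE 0.0792, limma adjusted p = 0.00371). BX255923.1, GAS6-AS1 and AC097451.1 changed by -0.99, -0.75 and -0.72, and the first 2 of them overlap other expressed genes.

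**Figure D3:**
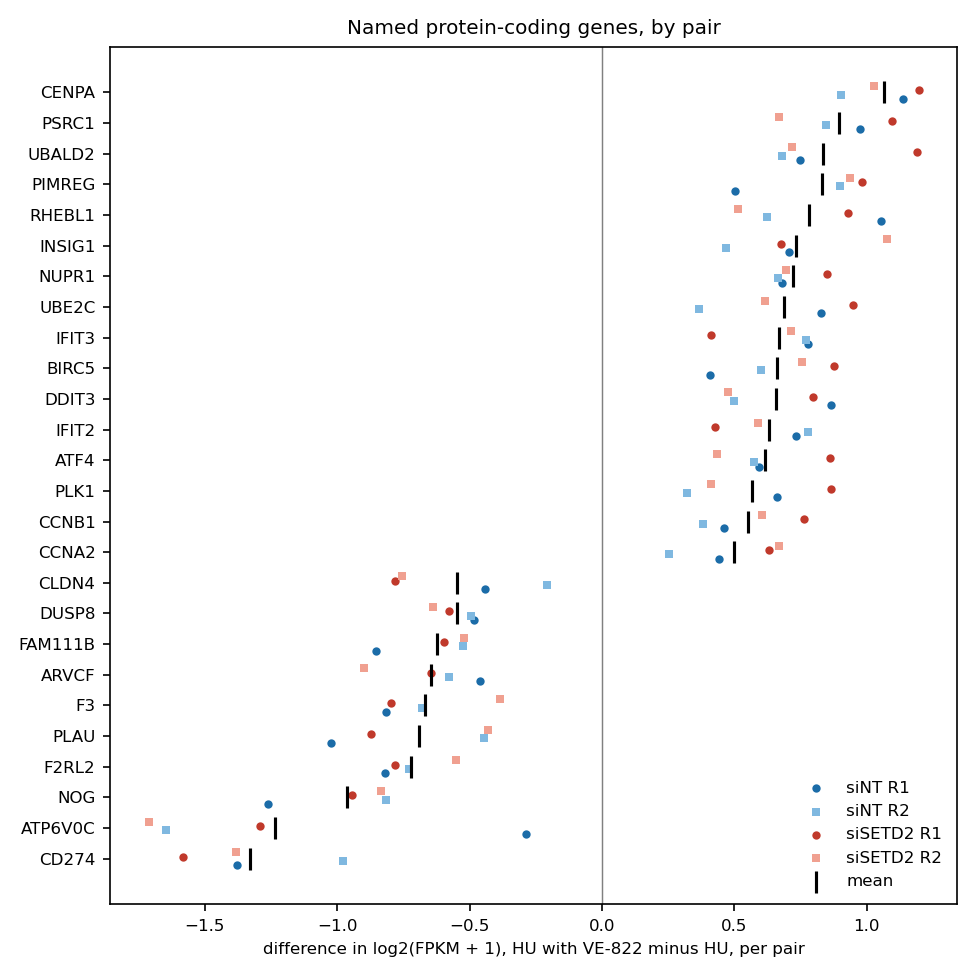
Difference in log2(FPKM + 1) between HU with VE-822 and HU in each of the 4 pairs, for 26 named protein-coding genes that passed the test, with the mean as a bar. All points of a gene lie on 1 side of 0, since each of these genes moved the same way in 4 of 4 pairs, and ATP6V0C shows the widest spread.

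Among stress genes of the ATF4 branch ATF4, NUPR1 and DDIT3 rose with VE-822. ATF4, the transcription factor translated when eIF2alpha is phosphorylated, stood at 62.8, 80.2, 70.7 and 87.5 FPKM in HU and 95.3, 119.8, 129 and 119 FPKM with VE-822 (0.62, SE 0.105, limma adjusted p = 0.0311), without overlap. NUPR1, a stress-induced chromatin protein, went from 4.29, 3.38, 4.13 and 3.81 FPKM to 7.47, 5.95, 8.24 and 6.80 FPKM (0.72, SE 0.105, limma adjusted p = 0.0174), also without overlap. DDIT3, the stress transcription factor CHOP, rose by 0.66 (SE 0.0992, limma adjusted p = 0.0201), with its siSETD2 R1 library in HU, at 19.4 FPKM, above siSETD2 R2 with VE-822, at 18.4 FPKM. It overlaps MARS on the other strand. Of 28 tested ATF4 and unfolded protein response genes these 3 rose and 0 fell (10.7% called, against 1.35% of all genes), and the median was 0.23, with pair medians of 0.13, 0.10, 0.38 and 0.29. The other 25 did not pass and ran from -0.22 for the chaperone HSPA5 to 0.70 for DDIT4, an inhibitor of mTOR signalling.

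Of 32 tested interferon-stimulated genes 2 rose and 0 fell (6.25% called, against 1.35% of all genes, and a median of 0.10). IFIT3, an antiviral protein, went from 20.6, 13.3, 27.0 and 14.4 FPKM to 36.1, 23.4, 36.3 and 24.3 FPKM (0.67, SE 0.107, limma adjusted p = 0.0248). The neighbouring family member IFIT2 went from 8.72, 5.02, 12.1 and 5.68 FPKM to 15.2, 9.33, 16.6 and 9.03 FPKM (0.63, SE 0.122, limma adjusted p = 0.0422). In both genes R1 was higher than R2 and the treatments overlapped, while each pair rose, and both overlap LIPA on the other strand. IFIT1 missed the threshold at 0.46 (limma adjusted p = 0.0542), and ISG15 and OAS1 did not pass, at 0.27 and 0.20. Of the 32 genes, 25 were higher and 7 lower. Among 25 NF-kB and cytokine genes 0 passed (median 0.12), with SOD2 at 0.52 (adjusted p = 0.084) and IL6 at -0.27 (adjusted p = 0.24).

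INSIG1, the sterol sensor that retains SREBP in the endoplasmic reticulum, stood at 19.1, 16.3, 34.2 and 18.2 FPKM in HU and 31.9, 22.9, 55.3 and 39.4 FPKM with VE-822 (0.73, SE 0.125, limma adjusted p = 0.0311). The siSETD2 R1 library was the highest of each treatment, and its HU value lay above 2 of the libraries with VE-822. The other 23 tested genes of cholesterol synthesis did not pass and ran from -0.24 for HMGCS1 to 0.32 for PMVK, both enzymes of the pathway. Of the 24 genes 1 was called (4.17%, against 1.35% of all genes), 17 were higher, and the median was 0.07. UBALD2, a small UBA-like domain protein, went from 16.5, 11.6, 14.7 and 12.2 FPKM to 28.4, 19.2, 34.8 and 20.8 FPKM (0.83, SE 0.109, limma adjusted p = 0.0145). RHEBL1, a small GTPase related to RHEB, went from 2.94, 2.04, 3.07 and 2.49 FPKM to 7.17, 3.69, 6.76 and 3.98 FPKM (0.78, SE 0.110, limma adjusted p = 0.0154). Neither overlapped between treatments, and both were highest in the R1 libraries with VE-822.

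For genes of G1/S, of the checkpoint itself and of repair the calls were near the 1.35% called over all genes. Of 69 tested E2F G1/S targets 1 rose, CCNA2, and 0 fell (1.45%), and the median was -0.03. Cyclin E1 (CCNE1) stood at 29.7, 25.0, 28.4 and 23.9 FPKM in HU and 31.1, 27.6, 32.4 and 30.4 FPKM with VE-822 (0.18, SE 0.0991, limma adjusted p = 0.346). CCNE2, CDC6, CDC25A, E2F1 and RRM2 stood at -0.17, -0.10, 0.03, 0.03 and -0.19, with adjusted p from 0.262 to 0.908. Of 30 tested genes of the ATR, CHK1 and WEE1 checkpoint 0 passed (median 0.03). ATR, the kinase that VE-822 targets, was lower in each pair, at 4.99, 4.61, 5.44 and 3.88 FPKM in HU and 4.00, 3.43, 4.68 and 3.70 FPKM with VE-822 (-0.21, SE 0.0746, limma adjusted p = 0.175). CHEK1, which encodes CHK1, stood at 0.17 (adjusted p = 0.339) and WEE1 at 0.22 (adjusted p = 0.134).

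In homologous recombination and the Fanconi pathway 23 of 31 tested genes were lower, 13 of them in 4 of 4 pairs (16.5% of all genes were), and 0 passed (median -0.10). The lowest were BRIP1 (-0.25), EXO1 (-0.24) and FANCD2 (-0.21). The 20 genes of dNTP supply gave 0 calls (median 0.08), and RRM2B, the p53-induced small subunit of ribonucleotide reductase, stood at -0.08 (adjusted p = 0.67). Of 35 p53 targets 0 passed, with CDKN1A (p21) at 131 ± 14.8 FPKM in HU and 141 ± 7.32 FPKM with VE-822 (0.12, SE 0.207, limma adjusted p = 0.795) and MDM2 at -0.05 (adjusted p = 0.882). Their median was 0.004 and turned to -0.012 after median-of-ratios rescaling. Immediate early genes gave 0 calls of 24 (median 0.06): EGR1 stood at 0.42 (SE 0.101, adjusted p = 0.0766), FOS at 0.06 and ATF3 at 0.16. With 1.35% called over all genes, 0 calls in lists of 20 to 35 genes do not show a lack of response. RSPO3, a Wnt enhancer, stood at -0.09 and the stress gene GADD45A at -0.02.

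Replication-dependent histone genes had a median of 0.28 over the 14 of 40 that were tested, with 12 higher. Of the 14, 1 was called (7.14%, against 1.35% of all genes). HIST1H2BJ alone passed, from 10.6, 5.55, 10.8 and 6.18 FPKM to 14.4, 8.06, 20.6 and 8.63 FPKM (0.54, SE 0.103, limma adjusted p = 0.0385), with R1 above R2 in each group. The mRNAs of this family are near-identical in places and mostly lack poly(A) tails, so both read sharing and library type can bear on these levels.

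Extracellular matrix and TGF-beta genes lay on the low side. Of 29 tested, 24 were lower, 18 of them in 4 of 4 pairs, against 16.5% of all genes lower in 4 of 4 pairs. In the test 1 fell and 0 rose (3.45% called, against 1.35% of all genes in either direction). The median was -0.19, and by pair -0.27, -0.07, -0.20 and -0.18. TGFB2, a ligand of the TGF-beta receptors, went from 3.90, 11.1, 3.82 and 12.2 FPKM to 2.87, 8.85, 2.64 and 9.33 FPKM (-0.35, SE 0.0640, limma adjusted p = 0.0361), with R2 far above R1 in both treatments. THBS1 (thrombospondin 1) at -0.53 (adjusted p = 0.0625), SPARC at -0.34 (adjusted p = 0.088) and COL1A1 at -0.29 (adjusted p = 0.092) missed the threshold. All 7 tested mesenchymal markers were lower (median -0.25), and 1 was called (14.3%, against 1.35% of all genes). It was endoglin (ENG), a TGF-beta co-receptor, which fell by 0.37 on the log2 scale (limma adjusted p = 0.0402). The summed level of the 13 mesenchymal markers was 341 to 515 FPKM in HU and 296 to 448 FPKM with VE-822, and that of the 9 epithelial markers 90.8 to 105 and 72.5 to 113 FPKM. What part these markers have in the falls was not tested.

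**Figure D4:**
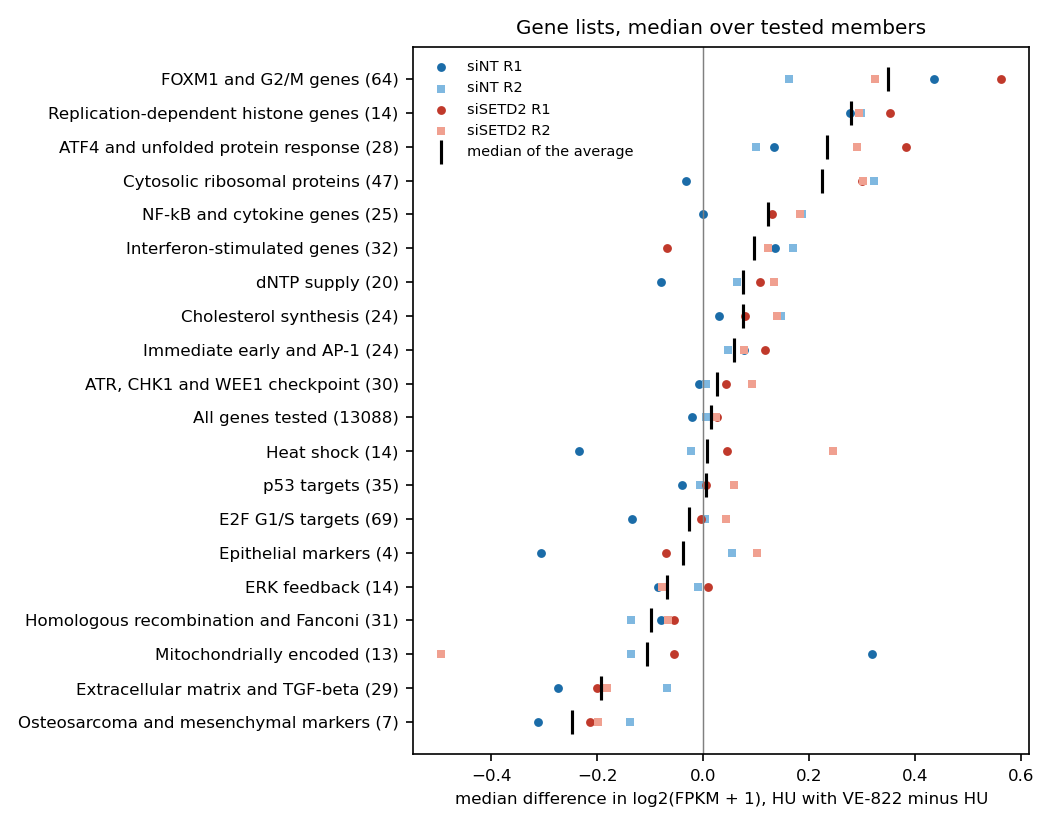
Median difference in log2(FPKM + 1) between HU with VE-822 and HU over the tested members of each gene list (number in brackets), by pair as points and for the average as a bar. The G2/M list lies farthest to the right, at 0.35 with all 4 pairs above 0, and all 13088 genes lie at 0.01.

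Short and noncoding transcripts took several of the largest rises. The pseudogene RPSAP47 stood at 2.99, 4.22, 3.03 and 1.89 FPKM in HU and 4.63, 19.1, 8.97 and 16.5 FPKM with VE-822 (1.59, SE 0.320, limma adjusted p = 0.0473). The small nucleolar RNA SNORD59A rose by 1.45, the pseudogene HMGN2P5 by 1.25, the 7SL RNA gene RN7SL2 by 1.19, the pseudogene AC099336.2 by 0.99 and MTATP6P1, a nuclear copy of mitochondrial sequence, by 0.88. Each was called in 1 to 5 of the 12 fits that left out 1 library. These sequences have near-identical copies or lie within other genes, so their fragments may belong elsewhere. RPS29, a ribosomal protein that was not in the list, went from 15.0, 14.9, 10.6 and 14.7 FPKM to 17.1, 33.3, 26.2 and 30.1 FPKM (0.87, SE 0.169, limma adjusted p = 0.0416). The 47 listed cytosolic ribosomal protein genes gave 0 calls (1.35% of all genes were called) and a median of 0.22. Of the 47, 45 were higher and 2 lower. Members higher in 4 of 4 pairs numbered 15 (17.7% of all genes were), and 6 were higher without overlap (3.84% of all genes were). The pair medians were -0.03, 0.32, 0.30 and 0.30, so siNT R1 stood apart. The 13 mitochondrially encoded genes gave 0 calls, and their pair medians ran from -0.49 in siSETD2 R2 to 0.32 in siNT R1. Of the 95 risen genes 11 were shorter than 1 kb (11.6%) and of the 82 fallen genes 8 (9.76%), against 12.2% of all genes tested.

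Split by siRNA, the comparison had 2 pairs each and gave 0 calls in siNT and 0 in siSETD2 by limma, with 1122 and 1434 genes at an unadjusted p under 0.05. With voom on recovered fragments siNT gave 0 and siSETD2 gave 1 risen and 2 fallen. The difference between the responses of the 2 siRNAs gave 0 calls by limma and by voom, with 294 genes at an unadjusted p under 0.05 by limma. CENPA stood at log2 fold changes of 1.02 in siNT and 1.11 in siSETD2, PSRC1 stood at 0.91 and 0.88, F3 at -0.75 and -0.59, and ATF4 at 0.58 and 0.65. Across the 13088 genes the 2 responses correlated at r = 0.482. Between single pairs r ran from 0.0802 (siNT R1 with siSETD2 R2) to 0.456 (siSETD2 R1 with siSETD2 R2). It was 0.216 between the 2 siNT pairs. These values describe genes, which are not independent, and the 2 responses share no library. At the filter of 1 FPKM no single gene passed the test of a difference between siRNAs. Other settings gave calls, with 14 genes higher in siSETD2 and 6 lower when no filter was used and 1 lower when siNT R2 in HU with VE-822 was left out.

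**Figure D5:**
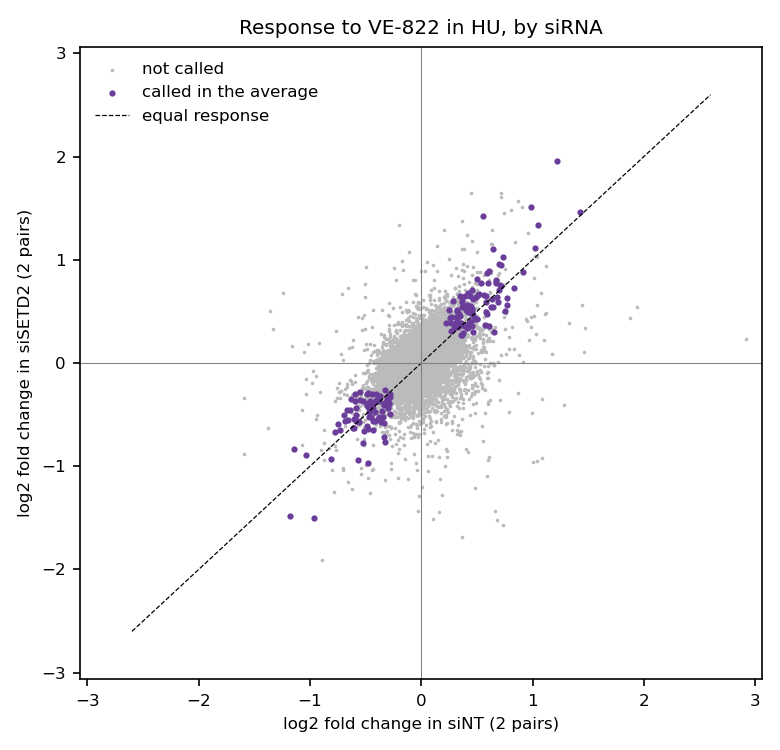
Log2 fold change of (FPKM + 1) for HU with VE-822 against HU in siNT (x axis) and in siSETD2 (y axis), each over 2 pairs, for 13088 genes, with the 177 genes called in the average coloured. The dashed line marks equal responses, and the called genes, which were chosen on the average of both axes, lie along it.

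VE-822 without HU was measured in 4 further libraries, which stand apart from the other 12 and share less of the difference between R1 and R2 (correlations with the other 6 groups of -0.0517 to 0.295 across genes). Their comparison with untreated cells called 5874 genes (44.9%), and the difference between the responses to VE-822 with and without HU called 4329 genes (33.1%), 2346 higher in HU and 1983 lower. Without the replicate block these were 658 and 639. What sets these libraries apart and a dependence on HU cannot be told apart. Side by side, CENPA stood at 1.07 with HU and 0.10 without, UBE2C at 0.69 and -0.14, PLK1 at 0.56 and -0.20, and the G2/M list at medians of 0.35 and 0.07. CD274 stood at -1.33 and -1.66, F2RL2 at -0.72 and -0.72 and ARVCF at -0.65 and -0.65. Among the 40 called genes named by rule, those called in the opposite direction without HU were UBALD2 (0.83 and -0.46), HIST1H2BJ (0.54 and -0.79), TGFB2 (-0.35 and 1.37), FAM111B (-0.62 and 0.54) and CLDN4 (-0.55 and 0.46).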

How the data were processed

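RNA was purified with a column kit and made into NEBNext Ultra libraries, per the labels' protocols. The authors deposited 1 table of FPKM values for 58735 Ensembl genes and 16 libraries. Per the submitters' processing notes, the genome build was hg38 and the tools included DESeq2 1.26.0, featureCounts 1.5.0-p3, FastQC and STAR 2.6.1d. Use of strand, annotation release and tool parameters: not given in the sources used here. All identifiers occur in GENCODE 29, whose symbols, positions and merged exon lengths were used. FPKM multiplied by these lengths and 1 factor per library gave whole fragments (tolerance 0.01) for 100% of values above 0, which gave the depths. The FPKM denominators were 0.940 to 1.07 times the libraries' own totals.

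The test was limma-trend (limma 3.58.1, R 4.3.3) on log2(FPKM + 1) of genes that averaged 1 FPKM or more. The model held 12 libraries (untreated, HU and HU with VE-822 in both siRNAs) with a block of 4 levels (siRNA by replicate number) and left 6 residual degrees of freedom. The difference R1 minus R2 correlated across genes at 0.604 to 0.746 among the 4 groups compared and at 0.363 to 0.746 among the 6 groups of the fit. The pairing comes from these shared numbers and this check, and no label ties equal numbers to one culture or day. The responses by siRNA came from a model with a response per siRNA, and the comparison with VE-822 alone from all 16 libraries, with a replicate term that was 0 in the 4 VE-822-alone libraries. P-values were adjusted by Benjamini-Hochberg over all genes tested. The fit was tested on simulated data.

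The members and the 20 gene lists were chosen with earlier results of these data known, so a list describes these libraries and is no independent evidence. Named genes were the 12 largest rises and falls among called genes that moved the same way in 4 of 4 pairs, up to 4 called members per list, and a set of checkpoint, cell cycle and stress genes given in every case. Other genes were named from list members. Promoters are RefSeq's, found for 9144 of 13088 genes by symbol.

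Alternatives changed the pseudocount (0.1 FPKM), the filter (0.1 or 5 FPKM, or none), the scaling, the block, the libraries in the model and the estimator, used voom on recovered fragments, and left out each library or pair.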

Additional observations from a re-analysis of the deposited data

Results flagged for a closer look

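The response to VE-822 differed between cells in HU and cells without HU in 30 of the genes named by rule, by a test of the difference itself (limma, adjusted over 13088 genes). Values are log2 fold changes of HU with VE-822 against HU minus those of VE-822 against untreated, over all 16 libraries. The test called 33.1% of all genes, and it rests on the 4 VE-822-alone libraries, which stand apart, so a dependence on HU and what sets those libraries apart cannot be told apart.

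Cell cycle and mitotic genes with a higher response in HU were CENPA (0.97, adjusted p = 0.000355), PSRC1 (0.86, adjusted p = 0.0105), PIMREG (0.76, adjusted p = 0.00158), CCNA2 (0.49, adjusted p = 0.00809), UBE2C (0.82, adjusted p = 0.00133), BIRC5 (0.59, adjusted p = 0.00363), PLK1 (0.76, adjusted p = 0.00193), PIF1 (1.14, adjusted p = 0.0132), CCNE1 (0.74, adjusted p = 0.00276) and CDC25A (0.52, adjusted p = 0.00942). Cell cycle genes with a lower response in HU were FAM111B (-1.17, adjusted p = 8.67e-05), CHEK1 (-0.35, adjusted p = 0.0486), CCNE2 (-0.45, adjusted p = 0.0161) and E2F1 (-0.60, adjusted p = 0.0144). Among p53, stress and histone genes the response was higher in HU for CDKN1A (1.13, adjusted p = 0.00974), RRM2B (0.67, adjusted p = 0.00262), ATF3 (0.76, adjusted p = 0.0034), DDIT3 (0.85, adjusted p = 0.0062), ATF4 (0.58, adjusted p = 0.0282) and HIST1H2BJ (1.34, adjusted p = 0.000329). Among surface, secreted and interferon genes it was lower in HU for PLAU (-0.53, adjusted p = 0.0486), TGFB2 (-1.72, adjusted p = 2.18e-06), CLDN4 (-1.01, adjusted p = 3.24e-05), RSPO3 (-1.75, adjusted p = 0.000222), IFIT3 (-1.08, adjusted p = 0.00117) and IFIT2 (-0.78, adjusted p = 0.0238). The remaining genes were UBALD2 (1.29, adjusted p = 0.000117), RHEBL1 (0.68, adjusted p = 0.00557), AC097451.1 (-0.91, adjusted p = 0.00486) and DUSP8 (0.34, adjusted p = 0.0443). The sign of the difference does not give the direction of either response. Not called in HU were CDKN1A (0.12 in HU and -1.02 without), RRM2B (-0.08 and -0.75), ATF3 (0.16 and -0.60) and RSPO3 (-0.09 and 1.66). Nor were CCNE1 (0.18 and -0.56), CDC25A (0.03 and -0.49), E2F1 (0.03 and 0.63), CHEK1 (0.17 and 0.52) and CCNE2 (-0.17 and 0.28). PIF1 (0.92 and -0.23) also missed the threshold in HU. IFIT3 and IFIT2 were higher with VE-822 in both settings (0.67 and 1.75, 0.63 and 1.41), DUSP8 was lower in both (-0.55 and -0.89), and for CENPA, PIMREG and CCNA2 the response without HU was 0.10, 0.07 and 0.01.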

How the results depend on the processing

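No called gene changed direction under the alternatives in which it was tested, but the number of calls depended on the model. The averaged comparison gave 0 risen and 0 fallen with no replicate block, 1 and 0 with 16 libraries and no replicate block, 28 and 28 with a replicate block of 2 levels, and 222 and 224 with the 8 libraries compared (171 of the 177 shared). A filter at 0.1 FPKM gave 29 and 29, no filter gave 3 and 7, and scaling to the same sum of FPKM gave 55 and 42. Median-of-ratios rescaling gave 100 and 126, and voom on recovered fragments 192 and 168 (169 shared). The pseudocount, TMM factors and robust estimation gave 179 to 184 calls (171 to 177 shared), 16 libraries with the block in 6 groups gave 172 (120 shared), and a filter at 5 FPKM 217. Leave-one-out ranges, over libraries and pairs, were 0 to 447 risen and 0 to 421 fallen for the average, 0 to 1 and 0 to 0 in siNT, 0 to 1 and 0 to 4 in siSETD2, and 0 to 0 and 0 to 1 for the difference between siRNAs.

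Elsewhere siNT gave 1 risen at a filter of 5 FPKM, 10 fallen with no filter, and 1 risen and 1 fallen with 16 libraries and the block. In siSETD2 there were 1 fallen at 5 FPKM, 11 risen and 10 fallen with no filter, 1 fallen after median-of-ratios rescaling, 2 and 2 with 16 libraries and the block, and 1 and 2 with voom. The difference between siRNAs gave 14 and 6 with no filter. The difference from VE-822 alone gave 658 risen and 639 fallen with no replicate block. The causes were not tested. Log2 fold changes near 0 that reversed when a library or pair was left out, none of them called, were those of MDM2 (-0.145 to 0.0986), GADD45A (-0.125 to 0.123), CDC25A (-0.0398 to 0.115), E2F1 (-0.0595 to 0.10), FOS (-0.0691 to 0.184) and CDKN1A (-0.00175 to 0.26). Each library held at least 22310806 fragments, and counting error weighs most on genes near 1 FPKM.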

Other observations

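The genes described here were chosen after their values were seen. CKS2, a subunit that binds cyclin-dependent kinases, went from 62.9, 55.0, 58.4 and 48.5 FPKM in HU (siNT R1, siNT R2, siSETD2 R1, siSETD2 R2) to 98.0, 82.6, 117 and 84.0 FPKM in HU with VE-822 (log2 fold change 0.75, SE 0.115, limma adjusted p = 0.0218). HMGB2, a chromatin protein of cycling cells, went from 25.7, 34.8, 23.5 and 37.5 FPKM to 40.7, 57.6, 46.1 and 59.9 FPKM (0.74, SE 0.0944, limma adjusted p = 0.0145). Neither gene overlapped between treatments. NDC80, a kinetochore protein, rose by 0.48, and TACC3, a spindle protein, by 0.38. The secreted vasoconstrictor EDN1 went from 5.52, 5.04, 5.22 and 4.62 FPKM to 2.86, 3.10, 2.95 and 3.12 FPKM (-0.60, SE 0.108, limma adjusted p = 0.0333) without overlap. ULBP2, a ligand of the natural killer receptor NKG2D, changed by -0.47 and CREB5, a transcription factor of the CREB and ATF family, by -0.62 (limma adjusted p = 0.0294 and 0.0145).

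Some families held several called members. Of 12 tested ALG genes, which build the lipid-linked oligosaccharide for N-glycosylation, 11 were lower (median -0.17) and ALG6 (-0.35), ALG8 (-0.31) and ALG10 (-0.38) fell, against 0.627% fallen of all genes. The family was picked because these members were called. TYW1 and TYW1B, near-identical copies of a tRNA-modifying enzyme, both fell, by 0.38 and 0.29 on the log2 scale, and shared reads can link their levels. Of 17 tested subunits of the vacuolar proton pump, ATP6V1C1 and ATP6V1B2 rose by 0.38 and 0.37 while ATP6V0C changed by -1.23. Over all genes tested 0.726% rose and 0.627% fell.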
